A study of Mus musculus with 6 samples.

Results

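Expression of 30 genes of cholesterol and fatty acid synthesis was examined in C2C12 cells, mouse myoblasts in culture that form myotubes after serum is lowered, with and without disruption of Phf2, which encodes a histone demethylase. The members were the rows of the gene count matrix carrying 1 of 30 listed symbols, and all 30 were found among 55401 genes. They comprised 18 enzymes that lead from acetyl-CoA to cholesterol, 6 genes of SREBP control and sterol transport, and 6 genes of fatty acid synthesis. The 3 Phf2 KO libraries came from cells transfected with a pool of 4 plasmids, each carrying a different guide RNA against Phf2, and the 3 control libraries from mock cells that received a plasmid without a specific guide and are labelled wild type. Cells of both groups carried a ZsGreen reporter plasmid with Cas9, were sorted for fluorescence, were not cloned, and were harvested 2 d post differentiation in medium with 2% horse serum. Each group was a single pool of sorted cells and the libraries were wells of 1 experiment, so p-values measure the spread between these wells, and a difference between pools cannot be told apart from an effect of Phf2.

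Cholesterol is built from acetyl-CoA through mevalonate, isoprenoid units, squalene and lanosterol, and fatty acids are built from acetyl-CoA and malonyl-CoA. Genes of both routes are known targets of the SREBP transcription factors, which are made as membrane proteins and are carried by SCAP from the endoplasmic reticulum to the Golgi for cleavage when sterols are low. INSIG proteins hold the SCAP and SREBP complex back when sterols are plentiful. Myotubes need both products for their membranes, and horse serum supplies cholesterol in lipoproteins.

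The total of estimated counts ranged from 52526109 to 67502788 per library. Phf2 itself was at 102.4, 95.5 and 104.6 CPM (counts scaled to the library total) in the control replicates, in order of their number, and at 41.1, 37.6 and 38.6 CPM in the KO replicates. All 7 myotube markers examined were detected and all 7 were lower in KO without overlap of the groups (against 12.2% of all genes tested), 5 being called lower at an adjusted p under 0.05 (against 3.26%), their summed level being 6876 to 8055 CPM in control and 5522 to 6073 CPM in KO. Of 9 adipocyte markers, 7 were below 1 CPM in every library and Plin1, Lep and Retn were at 0. The summed level of the 9 was 35.5 to 43.4 CPM in control and 53.2 to 59.4 CPM in KO, mostly from Cebpa. Only 3 of the 9 passed the filter, of which Cebpa was called higher and the other 2 had log2 fold changes below 0 without a call. All 6 hepatocyte markers and 4 of 5 macrophage markers were below 1 CPM in every library, and the summed level of 8 fibroblast markers was 22956 to 24677 CPM in control and 23694 to 25429 CPM in KO. Of these 8, Thy1 was at 0, Col1a1 and Col1a2 rose (against 3.22% of all genes called higher), and Col3a1 and Lum had log2 fold changes of -0.11 and -0.21 without a call. The part of these marker levels in the results on the 30 genes was not tested, and in bulk RNA fewer cells of a type and less RNA per cell cannot be told apart.

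The 30 genes also moved together between libraries of 1 group. Among the controls, replicate 1 was the lowest for 28 of 30 genes, against 33.4% of all 17310 genes tested, and replicate 3 was the highest for 25 of 30, against 33.9% of all genes. KO replicate 1 was the lowest of all 6 libraries for 27 of 30 genes, against 17.6% of all genes. The median log2 ratio of the 30 genes to the control mean was -0.17, -0.00 and 0.16 in control replicates 1, 2 and 3. In KO replicates 1, 2 and 3 it was -0.37, -0.11 and -0.14. The median over all genes was within 0.01 of 0 in every library, a value that the scaling of the libraries largely fixes. Control replicate 3, the library with the highest levels of most of these genes, was the lowest control library for all 7 myotube markers. No share over all genes was worked out for this count. The pattern was not confined to the myotube markers, as control replicate 3 was also the lowest control for 6 of 8 fibroblast markers. The same held for 2 of 5 macrophage, 2 of 9 adipocyte and 0 of 6 hepatocyte markers. A marker at 0 in every library could not count, which was so for 1 fibroblast, 1 macrophage, 3 adipocyte and 4 hepatocyte markers. The counts of these lists are therefore not comparable with that of the myotube markers.

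**Figure D1:**
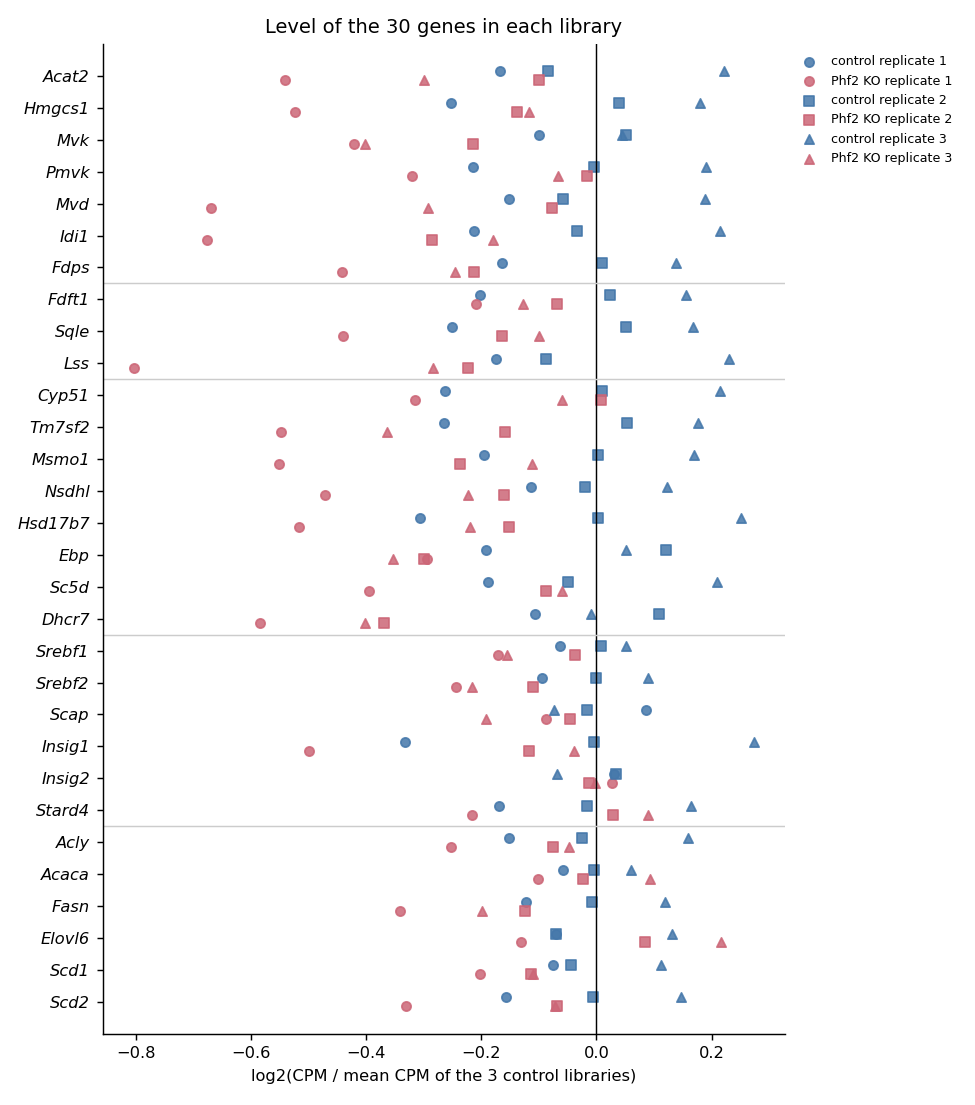
Level of each of the 30 genes in each library as log2 of CPM over the mean CPM of the 3 control libraries, with control in blue, Phf2 KO in red and the marker shape giving the replicate number. KO replicate 1 (red circles) is the lowest point for 27 of 30 genes, and control replicate 3 (blue triangles) is the highest for 23 of 30.

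Whether disruption of Phf2 was accompanied by a change of these genes was tested with edgeR's quasi-likelihood test over all 17310 genes that passed a filter on low counts, with Benjamini-Hochberg adjustment. All 30 members passed the filter. Of the 30, 28 had a log2 fold change below 0, against 50.2% of all genes. The median log2 fold change was -0.21, against -0.00 over all genes, and the range was -0.45 to 0.06. Lower expression in KO was called at an adjusted p under 0.05 for 4 members, Dhcr7, Mvk, Ebp and Srebf2, which is 13.3% of the 30 against 3.26% of all genes, and higher expression for 0 members against 3.22%. An unadjusted p under 0.05 was reached by 10 members, all lower in KO, against 9.47% of all genes. The levels of 9 members, Mvk, Fdps, Lss, Nsdhl, Ebp, Dhcr7, Srebf2, Fasn and Scd1, were lower in KO without overlap between the groups, against 12.2% of all genes.

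The labels number the libraries 1 to 3 in each group, and same-numbered libraries deviated together from their group means. The sources do not say what the numbers stand for, so the pairing used here is an assumption. With the replicate number as a block in the same test, 17 of 30 members were lower at an adjusted p under 0.05, 56.7% against 3.86% of all genes, and 0 were higher, against 3.74% (7.6% of all genes in either direction). The 13 added by the block were Hmgcs1, Idi1, Fdps, Sqle, Lss, Tm7sf2, Msmo1, Nsdhl, Hsd17b7, Insig1, Fasn, Scd1 and Scd2. Within the pairs, KO was below the control of the same number for 30 of 30 members in pair 1, 28 of 30 in pair 2 and 27 of 30 in pair 3. Over all genes these shares were 50.5%, 49.6% and 49.4%. KO was below the control in all 3 pairs for 26 of 30 members, against 21.1% of all genes. The median log2 ratio of KO to control over the 30 genes was -0.18 in pair 1, -0.10 in pair 2 and -0.29 in pair 3.

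These counts depended on which libraries entered the fit, while the median stayed below 0. Without control replicate 1 the test without a block called 7 members, without control replicate 3 or KO replicate 2 it called 2, and without control replicate 2, KO replicate 1 or KO replicate 3 it called 1. Over all genes the count moved as well, from 1122 to 769, 468 and 1039 without control replicates 1, 2 and 3 and to 886, 577 and 613 without KO replicates 1, 2 and 3. The median log2 fold change was -0.13 without KO replicate 1, -0.31 without control replicate 1 and -0.14 without control replicate 3. With the block, 7 members were called without pair 1, 15 without pair 2 and 6 without pair 3, with 478, 692 and 794 genes called in all, and the median was -0.22, -0.24 and -0.16.

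**Figure D2:**
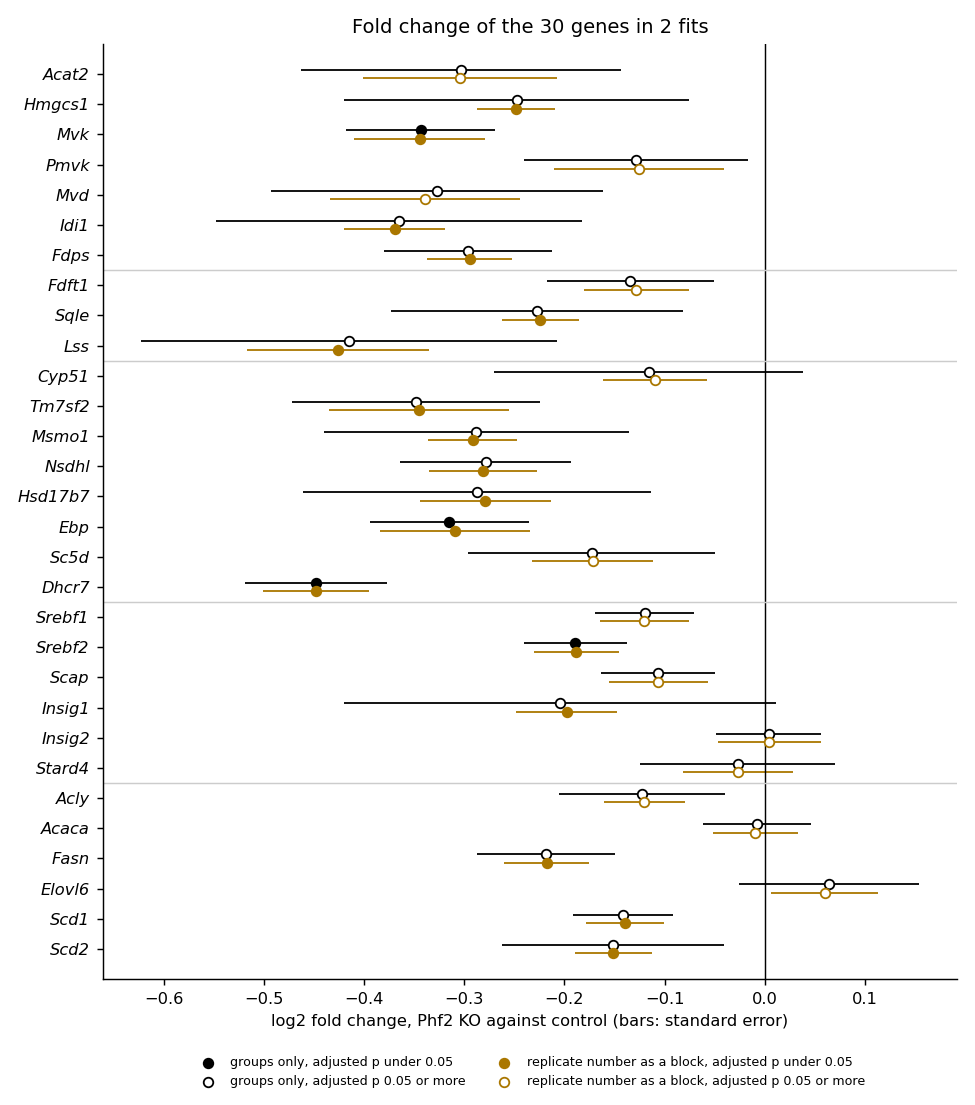
Log2 fold change of Phf2 KO against control for the 30 genes in the fit with groups only (black) and in the blocked fit (brown), bars being standard errors and filled points an adjusted p under 0.05. The point estimates of both fits lie close together, and 4 points are filled in black and 17 in brown.

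The largest fall among the 30 was in Dhcr7 (ENSMUSG00000058454, mm10 chr7:143823145-143848410, plus strand), whose product makes cholesterol from 7-dehydrocholesterol in the last step of the pathway. It was at 54.3, 63.0 and 58.1 CPM in the controls and at 39.0, 45.3 and 44.3 CPM in the KO replicates. The groups did not overlap, and each KO library was below all 3 controls. The log2 fold change was -0.45 (SE 0.0709, n = 3 per group, edgeR quasi-likelihood adjusted p = 0.00177), and the mean was 26.7% lower. The call held without each library in turn, with an adjusted p of at most 0.0183. The level per length of Dhcr7 did not show this difference. In TPM (transcript abundance scaled by length) it was 25.8, 15.1 and 20.4 in control and 14.2, 35.6 and 21.7 in KO, with overlapping groups and a higher mean in KO.

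Mvk (ENSMUSG00000041939, mm10 chr5:114444269-114460591, plus strand) encodes mevalonate kinase, which phosphorylates mevalonate. Its level was 35.0, 38.9 and 38.7 CPM in control and 28.1, 32.4 and 28.4 CPM in KO. Every KO library was below every control library. Mvk fell by 0.34 on the log2 scale (SE 0.0746, edgeR quasi-likelihood adjusted p = 0.0136). The adjusted p was 0.0830 without control replicate 2, 0.0519 without KO replicate 1 and 0.0752 without KO replicate 3.

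Ebp (ENSMUSG00000031168, mm10 chrX:8185329-8193512, minus strand) encodes the sterol isomerase that shifts a double bond within the sterol ring. It was at 32.5, 40.4 and 38.4 CPM in control and at 30.3, 30.2 and 29.0 CPM in KO. The 3 KO libraries were close to each other and below the lowest control. Ebp fell by 0.32 on the log2 scale (SE 0.0794, edgeR quasi-likelihood adjusted p = 0.0296). The call was lost without control replicate 2 (adjusted p = 0.174), control replicate 3 (0.0890), KO replicate 1 (0.0632), KO replicate 2 (0.0933) or KO replicate 3 (0.123).

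Srebf2 (ENSMUSG00000022463, mm10 chr15:82147181-82205379, plus strand) encodes SREBP2, the SREBP that acts mainly on cholesterol genes. It was at 420.1, 448.6 and 477.4 CPM in control and 378.8, 415.9 and 386.3 CPM in KO. The highest KO library lay just below the lowest control. Srebf2 fell by 0.19 on the log2 scale (SE 0.0517, edgeR quasi-likelihood adjusted p = 0.0443), a mean 12.3% lower. Its adjusted p was the largest of the 4, and the call was lost without control replicate 2 (adjusted p = 0.164), control replicate 3 (0.138), KO replicate 1 (0.136), KO replicate 2 (0.0534) or KO replicate 3 (0.161), and under edgeR's exact test (adjusted p = 0.124).

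In the mevalonate pathway, which makes the isoprenoid units, all 7 members had a log2 fold change below 0 (50.2% of all genes did) with a median of -0.30, 1 was called lower without the block (3.26% of all genes) and 4 with it (3.86%). Hmgcs1, the cytosolic HMG-CoA synthase, was at 258.9, 316.9 and 349.3 CPM in control and 214.7, 280.2 and 284.4 CPM in KO. The groups overlapped, but each KO library was below the control of its number by 0.18 to 0.30 on the log2 scale. The log2 fold change of Hmgcs1 was -0.25 (SE 0.172), with an edgeR adjusted p of 0.544 without the block and 0.00216 with it. Idi1, which interconverts the isomers of isopentenyl diphosphate, was at 86.3, 97.6 and 116.1 CPM in control and 62.6, 82.0 and 88.3 CPM in KO. Its log2 fold change was -0.37, with an adjusted p of 0.391 without the block and 9.83e-04 with it. Fdps, the synthase of farnesyl diphosphate, was at 186.0, 209.8 and 229.5 CPM in control and 153.6, 179.9 and 175.8 CPM in KO without overlap. Its log2 fold change was -0.30, with an adjusted p of 0.0815 without the block and 0.00131 with it. Fdps shares 26.7% of its exon bases with Gm43738, a gene on the same strand, so its counts are uncertain.

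The other 3 mevalonate members were not called in either test. Acat2, the cytosolic acetyl-CoA acetyltransferase, had a log2 fold change of -0.30 (adjusted p = 0.407, and 0.145 with the block, by edgeR), and it has a near-identical copy, Acat3, that could take part of its reads. Mvd, the decarboxylase that closes the mevalonate steps, had a log2 fold change of -0.33 with adjusted p-values of 0.363 and 0.0644. In Acat2 and Mvd the KO library of pair 2 was nearly level with its control, at log2 ratios of -0.02 and -0.02, while the log2 ratios of pairs 1 and 3 ranged from -0.37 to -0.52. Pmvk, the second kinase of the pathway, had a log2 fold change of -0.13 with adjusted p-values of 0.604 and 0.461.

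Of the 3 genes between farnesyl diphosphate and lanosterol, 0 were called lower without the block (3.26% of all genes) and 2 with it (3.86%). Sqle, the squalene epoxidase, was at 173.1, 213.6 and 231.3 CPM in control and 151.9, 184.0 and 192.1 CPM in KO. The groups overlapped and the 3 pairs had log2 ratios between -0.19 and -0.27. The log2 fold change of Sqle was -0.23, with an edgeR adjusted p of 0.503 without the block and 0.00397 with it. Lss, which folds the epoxide into lanosterol, was at 67.5, 71.7 and 89.3 CPM in control and 43.6, 65.2 and 62.5 CPM in KO. KO replicate 1 was far below the other KO libraries, and the groups did not overlap. The log2 fold change of Lss was -0.42, the second largest in size of the 30, with adjusted p-values of 0.391 and 0.0344. Fdft1, the squalene synthase, had a log2 fold change of -0.13 with adjusted p-values of 0.453 and 0.187, and 18.3% of its exon bases lie opposite Ctsb, a gene of the other strand at a mean of 954 CPM in control.

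Of the 8 genes from lanosterol to cholesterol, all had a log2 fold change below 0 (50.2% of all genes did), 2 were called lower without the block (3.26% of all genes) and 6 with it (3.86%). Msmo1, the sterol 4-methyl oxidase, was at 99.1, 113.7 and 127.7 CPM in control and 77.5, 96.3 and 105.0 CPM in KO. Control replicate 1 lay below KO replicate 3, so the groups overlapped, and the log2 ratios within the pairs were -0.36, -0.24 and -0.28. The log2 fold change of Msmo1 was -0.29, with an edgeR adjusted p of 0.409 without the block and 0.00178 with it. Nsdhl, which acts next on the 4-methyl groups, was at 80.1, 85.6 and 94.4 CPM in control and 62.6, 77.6 and 74.3 CPM in KO without overlap. Its log2 fold change was -0.28, with adjusted p-values of 0.0979 and 0.00735. Hsd17b7, the 3-ketosteroid reductase of the same steps, had a log2 fold change of -0.29 with adjusted p-values of 0.471 and 0.0230. Tm7sf2, a sterol reductase, had a log2 fold change of -0.35 with adjusted p-values of 0.133 and 0.0372, and it shares 12.1% of its exon bases with Vps51 on the same strand. The remaining 2 were not called in either test. Cyp51, the lanosterol demethylase, had a log2 fold change of -0.12 (adjusted p = 0.780 and 0.264), and Sc5d, the sterol desaturase, had one of -0.17 (adjusted p = 0.527 and 0.118).

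**Figure D3:**
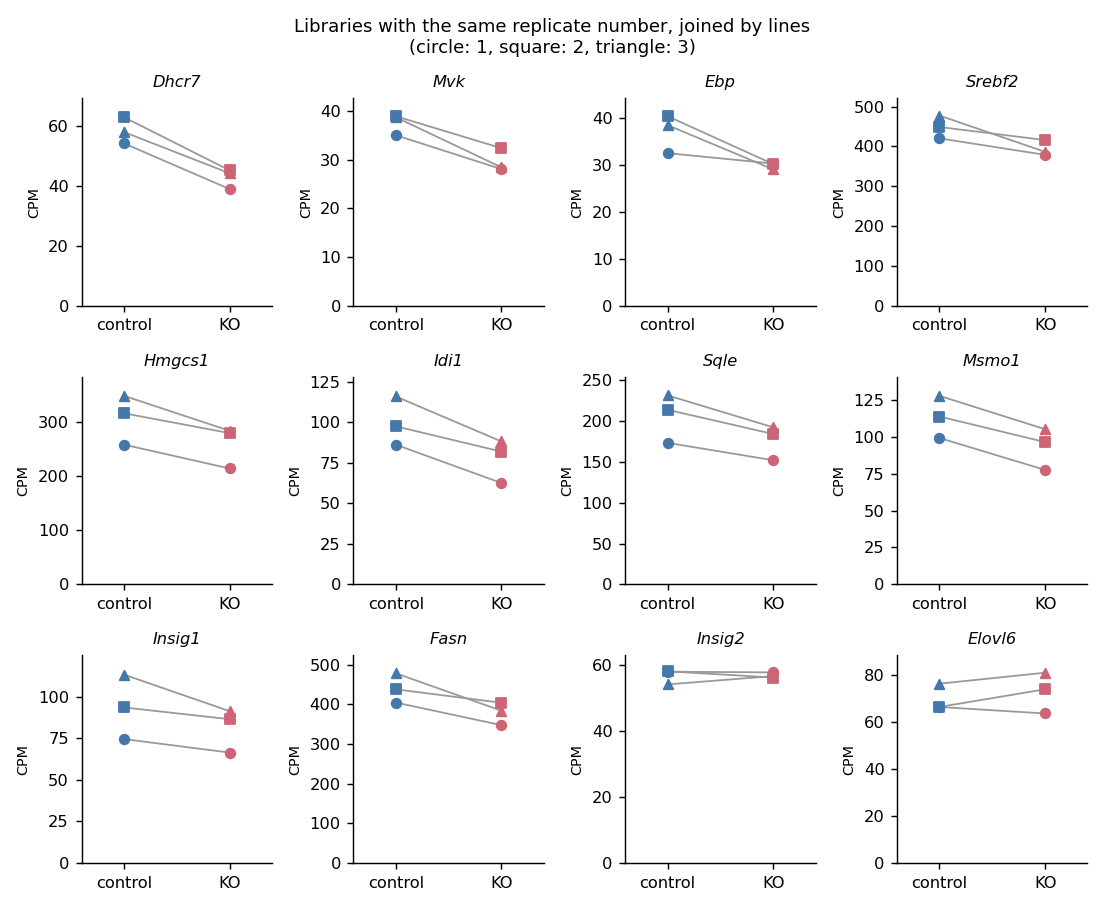
CPM of 12 of the genes in each library, with lines joining the control and the Phf2 KO library of the same replicate number and the axis starting at 0. For Hmgcs1, Idi1, Sqle and Msmo1 the 3 lines run downward from different starting levels, whereas those of Insig2 and Elovl6 do not share a direction.

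Among the 6 genes of SREBP control and sterol transport the differences were smaller, with a median log2 fold change of -0.11, and 1 was called lower without the block (3.26% of all genes) and 2 with it (3.86%). Insig1, an SREBP target whose product retains SCAP, varied most between controls of all 30 genes, with a coefficient of variation of 20.7%. It was at 74.5, 93.6 and 113.3 CPM in control and 66.4, 86.5 and 91.3 CPM in KO. The groups overlapped while each KO library was below its numbered control, and the log2 fold change was -0.20 with an edgeR adjusted p of 0.712 without the block and 0.0330 with it. Insig2, whose product has the same role, varied little. It was at 57.8, 58.0 and 54.0 CPM in control and 57.7, 56.1 and 56.5 CPM in KO, with a log2 fold change of 0.00 (adjusted p = 0.984, and 0.977 with the block). Scap, the SREBP escort, had a log2 fold change of -0.11 (adjusted p = 0.333, and 0.245 with the block). Srebf1, which encodes the SREBP1 forms that act mainly on fatty acid genes, had one of -0.12 (adjusted p = 0.193 and 0.140). Stard4, a cytosolic sterol carrier, had one of -0.03 (adjusted p = 0.928 and 0.852).

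Among the 6 fatty acid genes 0 were called lower without the block (3.26% of all genes) and 3 with it (3.86%), with a median log2 fold change of -0.13. Fasn, the fatty acid synthase, was at 404.8, 438.2 and 478.7 CPM in control and 347.7, 404.2 and 384.1 CPM in KO. The groups came close without overlapping, and the log2 fold change was -0.22 with an edgeR adjusted p of 0.101 without the block and 0.00818 with it. Scd1 and Scd2 encode stearoyl-CoA desaturases, which make monounsaturated fatty acids. Scd1 was at 658.0, 671.9 and 749.0 CPM in control and 602.4, 640.2 and 642.1 CPM in KO, with a log2 fold change of -0.14 and adjusted p-values of 0.121 and 0.0494. Scd2 was at 1761, 1954 and 2171 CPM in control and 1561, 1871 and 1867 CPM in KO, with a log2 fold change of -0.15 and adjusted p-values of 0.562 and 0.0334. Acly, which makes cytosolic acetyl-CoA from citrate, had a log2 fold change of -0.12 with adjusted p-values of 0.497 and 0.105. Acaca, the acetyl-CoA carboxylase, had one of -0.01 with adjusted p-values of 0.963 and 0.938. Elovl6, an elongase, was at 66.4, 66.4 and 76.3 CPM in control and 63.6, 73.9 and 80.9 CPM in KO, with overlapping groups and the highest log2 fold change of the 30, 0.06 (adjusted p = 0.783 and 0.598).

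**Figure D4:**
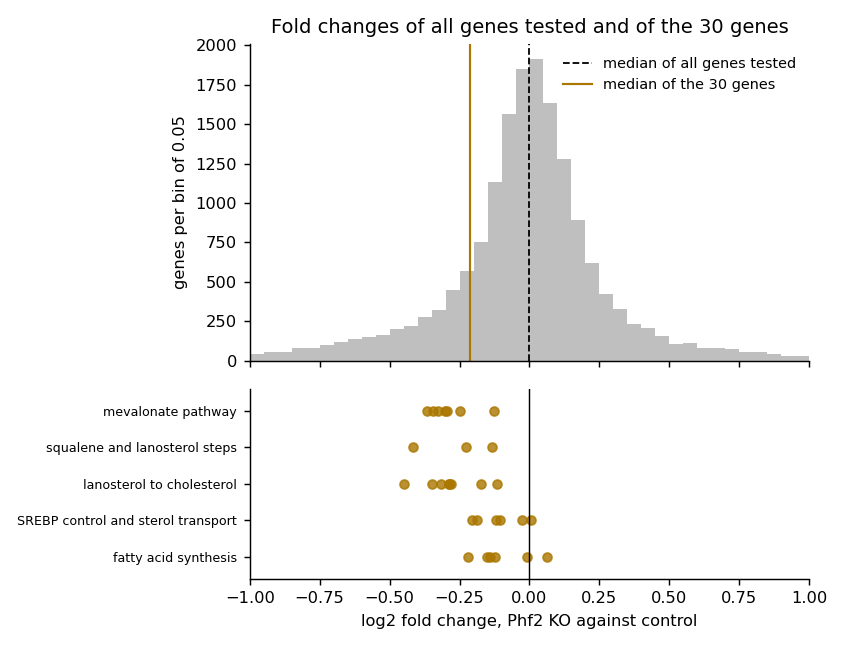
Distribution of the log2 fold change of all 17310 genes tested in bins of 0.05 (top), with the medians of all genes and of the 30 genes marked, and the 30 genes by role (bottom). All 18 genes of the 3 cholesterol synthesis groups lie left of 0, most of them around the group medians of -0.30, -0.23 and -0.29, and 640 of the 17310 genes lie beyond the axis.

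Levels of different genes were compared per length, as TPM in single libraries. The order in control ran from Scd2 (776 ± 85.1 TPM, SD, n = 3) through Scd1 (310 ± 23.2) and Fdps (301 ± 9.74) to Srebf2 (200 ± 15.3) and Hmgcs1 (198 ± 28.6). Scd1 and Fdps, and likewise Srebf2 and Hmgcs1, did not differ beyond their spread. The lowest were Dhcr7 (20.5 ± 5.37), Elovl6 (8.43 ± 2.73) and Acaca (6.88 ± 0.278), of which the last 2 did not differ beyond their spread. Dhcr7 did not differ beyond its spread from Stard4 (21.6 ± 3.04), Sc5d (22.7 ± 3.33) or Hsd17b7 (24.2 ± 4.76). The mean TPM was lower in KO for 26 of 30 genes, against 48.3% of all genes. The groups did not overlap for 7 genes that were lower in KO, against 9.95% of all genes, and for 1 that was higher, against 11.2% of all genes. Of the 4 genes called on counts, Ebp and Srebf2 were among the 7, whereas the TPM of Dhcr7 and Mvk overlapped, Mvk being at 38.1, 47.4 and 49.3 TPM in control and 35.7, 41.2 and 35.9 TPM in KO. The 1 that was higher was Insig2, at 47.8, 43.9 and 46.2 TPM in control and 48.1, 48.1 and 47.8 TPM in KO. A test on log2 of TPM plus a pseudocount of 1, by limma, called 0 of 30 members without the block, where 127 of 17310 genes were called, and 0 with it, where 3 genes were called, so these counts say nothing about the members.

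**Figure D5:**
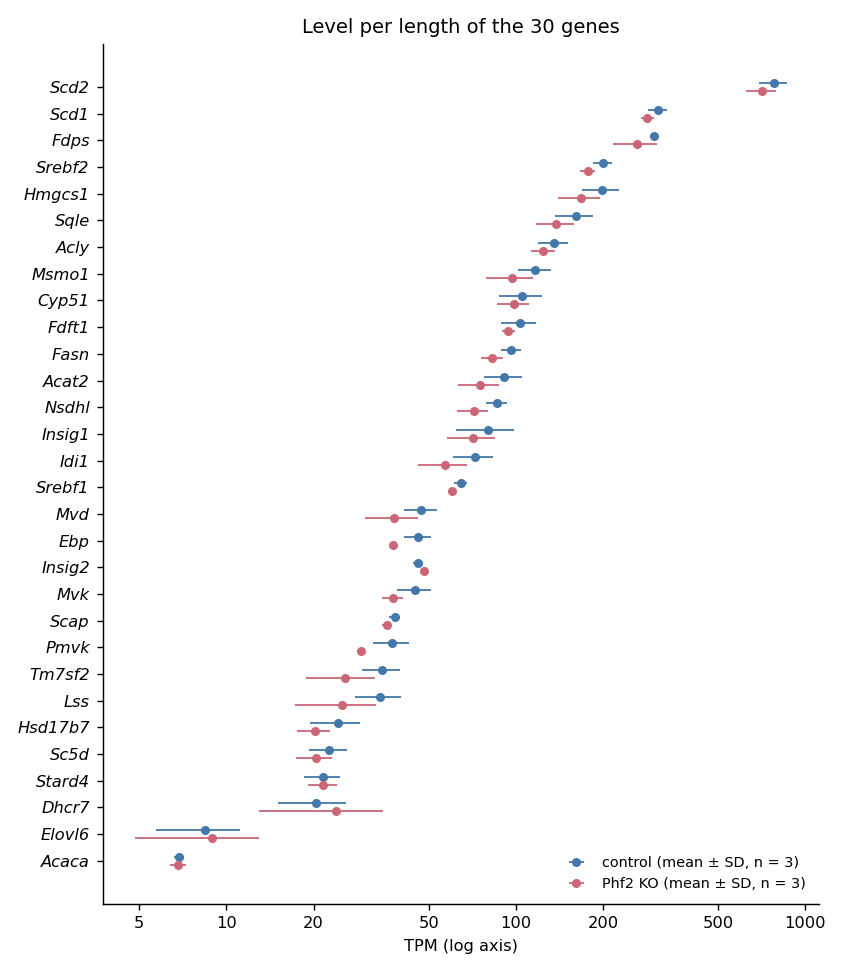
Mean TPM of the 30 genes in control (blue) and Phf2 KO (red) on a log axis, bars being the SD over 3 libraries, in order of the control mean. Levels run from 776 TPM for Scd2 to 6.88 TPM for Acaca, and the bars of Dhcr7 are long because its TPM in KO ranges from 14.2 to 35.6.

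The stretches before the start sites were examined because so many of these genes moved together between libraries. RefSeq windows of 300 bases, 250 before and 50 after an annotated start (GRCm38.p6), were matched for 24 of the 30 genes in 32 windows. They were searched on both strands for the sterol regulatory element SRE-1, a looser SRE core that SRE-1 contains (TCACNCCAC), the CCAAT box (CCAAT) bound by NF-Y, the GC box (GGGCGG) bound by Sp1, and the E-box CACGTG. The CCAAT box was present in 21 of 32 windows, against 37.4% of all 32851 windows, and GGGCGG in 24 of 32, against 35.7%. By gene, CCAAT was held by 20 of the 24, which were 13 of the 13 that were lower in KO in either test and 7 of the other 11. GGGCGG was held by 20 of the 24, of which 12 were among the same 13. No share by gene over all genes was worked out, and a gene with several windows counted if any of them held the letters. Most of the 13 were called only with the block, and a link of these letters to the change in KO was not tested. CACGTG was present in 6 of 32 windows, against 7.15%. TCACNCCAC was found in 1 of 32, that of Hmgcs1, against 1.24%, and SRE-1 in 0 of 32, against 0.0913%. Only exact matches were counted. The Srebf2 window holds a stretch that differs from SRE-1 in its last base alone, and it was not counted. Fdps, Fdft1, Sqle, Scd1 and Scd2 had no matched window. Stard4 was left out because windows on its chromosome, 18, were dropped for the members, though not for the 32851. These counts therefore do not show that the promoters lack sterol regulatory elements. The windows of Hmgcs1, the one with an SRE core, and of the called genes Mvk, Ebp and Srebf2 are given 5′ to 3′ on the strand of the gene, with capitals marking CCAAT or its reverse complement ATTGG and, in Hmgcs1, the SRE core. Dhcr7 had 3 windows at different starts, of which 2 held no CCAAT, and is not shown. They lie at chr13:119690101-119690400 (plus strand), chr5:114444019-114444318 (plus), chrX:8193463-8193762 (minus) and chr15:82147019-82147318 (plus).
Hmgcs1: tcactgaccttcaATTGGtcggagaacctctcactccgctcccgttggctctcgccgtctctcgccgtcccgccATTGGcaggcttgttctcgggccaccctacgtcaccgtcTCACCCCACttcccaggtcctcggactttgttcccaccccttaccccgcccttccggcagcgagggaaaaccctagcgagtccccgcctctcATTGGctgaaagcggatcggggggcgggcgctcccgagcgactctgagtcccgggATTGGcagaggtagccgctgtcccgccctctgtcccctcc
Mvk: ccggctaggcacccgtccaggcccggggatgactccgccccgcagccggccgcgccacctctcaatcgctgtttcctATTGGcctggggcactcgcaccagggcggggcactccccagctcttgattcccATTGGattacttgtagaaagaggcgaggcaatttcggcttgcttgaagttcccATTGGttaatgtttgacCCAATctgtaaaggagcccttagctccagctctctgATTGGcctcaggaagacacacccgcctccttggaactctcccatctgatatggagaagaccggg
Ebp: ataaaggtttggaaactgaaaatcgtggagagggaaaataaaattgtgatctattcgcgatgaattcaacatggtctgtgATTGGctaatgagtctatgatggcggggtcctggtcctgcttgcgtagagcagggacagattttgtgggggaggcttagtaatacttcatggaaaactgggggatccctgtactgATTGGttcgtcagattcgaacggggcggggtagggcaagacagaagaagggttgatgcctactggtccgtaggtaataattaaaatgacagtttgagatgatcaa
Srebf2: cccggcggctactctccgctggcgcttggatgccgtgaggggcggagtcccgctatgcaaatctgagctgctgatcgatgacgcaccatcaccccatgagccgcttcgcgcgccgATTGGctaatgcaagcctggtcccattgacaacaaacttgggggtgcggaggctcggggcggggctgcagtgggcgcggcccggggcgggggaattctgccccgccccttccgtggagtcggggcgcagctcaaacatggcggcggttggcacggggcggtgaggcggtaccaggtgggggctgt
The SRE core of Hmgcs1 begins 137 bases before the RefSeq start. The bases after that start were not found in a GENCODE M21 transcript of Hmgcs1, whereas 27 of the 32 windows had such a match. Mvk had the most CCAAT matches of these 4 windows. A match in these letters is a description of the window and not evidence of binding.

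Other genes of the same routes were matched for 79 symbols, of which 73 were tested. Their median log2 fold change was -0.01, close to that of all genes, and 41 of 73 lay below 0. Of the 73, 4 were called lower, or 5.48% against 3.26% of all genes, and 0 higher, against 3.22%. In either direction it was 5.48% against 6.48% of all genes. The groups did not overlap for 16 that were lower in KO, against 12.2% of all genes, and for 8 that were higher, against 12.9%. An unadjusted edgeR p under 0.05 was reached by 15 that were lower in KO, against 9.47% of all genes. With the block 9 were lower, against 3.86% of all genes, and 1 was higher, against 3.74%. Of 9 other isoprenoid and sterol enzymes 0 were called without the block and 3 lower with it. Among them Erg28, a scaffold of the sterol enzymes, had a log2 fold change of -0.27 with an edgeR adjusted p of 0.160 without the block and 0.0345 with it.

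Of 21 genes of sterol uptake, transport, esterification and efflux 1 was called lower without the block (3.26% of all genes). With the block 2 were called lower (3.86% of all genes) and 1 higher (3.74%). Apoe, a lipoprotein component, was at 26.6, 23.2 and 16.2 CPM in control and 37.0, 30.04 and 29.8 CPM in KO without overlap. Its log2 fold change was 0.55 with an edgeR adjusted p of 0.208 without the block and 0.00464 with it. Lrp1, a large endocytic lipoprotein receptor, fell by 0.13 on the log2 scale (adjusted p = 0.0415), and its adjusted p was 0.0915 without control replicate 1, 0.143 without control replicate 2, 0.216 without KO replicate 2 and 0.0951 without KO replicate 3.

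The other 3 lists are short, and over all genes 3.26% were called lower without the block and 3.86% with it. Of 20 other genes of fatty acid synthesis, elongation and desaturation 2 were called lower in both tests. Tecr, the reductase of the last elongation step, was at 236, 240 and 250 CPM in control and 202, 212 and 187 CPM in KO, and fell by 0.27 on the log2 scale (edgeR adjusted p = 0.00490), a call that held without each library in turn. Fads3, of the fatty acid desaturase family, fell by 0.18 (adjusted p = 0.0343). Of 11 genes of SREBP cleavage and enzyme turnover 1, Syvn1, a ubiquitin ligase of the endoplasmic reticulum, fell by 0.23 (adjusted p = 0.0211). Of 12 glycerolipid synthesis genes 0 were called without the block and 1, Agpat3, an acyltransferase, was lower with it (log2 fold change -0.15, adjusted p = 0.0280). The call of Fads3 was lost without control replicate 1 (adjusted p = 0.133), 2 (0.118) or 3 (0.0630) and without KO replicate 2 (0.12) or 3 (0.140). Syvn1 was not called without control replicate 1 (0.0669) or 2 (0.0940) or KO replicate 3 (0.0796).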

How the data were processed

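RNA of 6 libraries (3 control, 3 Phf2 KO) was poly(A)-selected, prepared with a directional kit and sequenced as paired reads by the study. The authors aligned reads to mm10 with HISAT2 and deposited StringTie estimated counts for 55401 genes and, per library, tables with TPM, which is a length-scaled coverage signal. Their versions and the strand setting of the counting are not given in the sources used here. The deposited estimated counts are rebuilt from coverage: 1 count stands for about 75.0 covered bases, so a read pair adds about 4 counts, and the totals overstate depth. The deposited TPM tables list assembled loci and, again, reference genes. Only the reference genes of the count matrix were used, whose TPM sums to between 976993 and 984559 per library.

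Estimated counts of 17310 genes that passed filterByExpr (minimum count 10) were scaled by TMM and tested with edgeR 4.0.16 (robust quasi-likelihood, R 4.3.3) for Phf2 KO against control, with no block and an adjusted p threshold of 0.05. CPM used TMM-scaled totals. Same-numbered libraries are labelled 1 to 3, and their deviations from the group means correlated at 0.25, 0.24 and 0.16 over 10923 genes. Other pairs were at -0.24 to -0.01, which is no separate support, because deviations from a group mean cancel out within the group. What the numbers stand for is not stated. Taking them to pair the libraries is therefore an assumption drawn from these same data, and the blocked result is printed where it changes a call. DESeq2 1.42.0, limma 3.58.1 (voom, and trend on log2 TPM), other scalings and filters, and omitted libraries served as alternatives. The fits were tested on simulated counts drawn without any effect of the replicate number, so that test cannot bear on the pairing. Coordinates were from GENCODE M21, where 30 of 30 members had the same start and end as in the deposited tables, and promoter windows were from RefSeq.

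The members and the lists of related genes and markers were chosen with earlier results of these data known, so no test over a list was made. Named genes were Phf2, the 30 members, at most 5 called genes of each related list, and genes on which a count of 5 or fewer rests. Faxdc2 was not analysed here, and values of some genes of the related lists are not reported here.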

Additional observations from a re-analysis of the deposited data

How the results depend on the processing

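With the replicate number as a block, 17 members, 10 related genes and 1316 of all genes passed, against 4, 4 and 1122 without it. Fits with DESeq2 called 7 members and 7 related genes where 1509 genes were called in all (19 and 11 where 1342 were called, with the block). Limma-voom called 2 members and 4 related genes where 916 genes were called (16 and 10 where 1125 were called, with the block). Limma on log2(TPM + 1) called 127 genes in all, on log2(TPM + 0.1) 153, and with the block 3, with 0 members and 0 related genes in each. An adjusted p under 0.01 left 472 genes, 1 member and 1 related gene. Without 1 library the counts ran from 1 to 7 members, 1 to 6 related genes and 468 to 1039 of all genes, and the members' median from -0.31 to -0.13. Fits that dropped a pair were chosen after seeing the data, as were DESeq2, voom and TPM fits with the block. Without pairs 1, 2 and 3 they called 649, 217 and 618 genes and 9, 1 and 1 members, and without pairs 2 and 3, 1 and 0 related genes. With the block, 478 and 692 genes and 7 and 15 members were called without pairs 1 and 2. The sign turned for Insig2 with upper-quartile factors (-0.0062) and without pair 3 (-0.028, and -0.028 with the block), for Stard4 on both TPM scales (0.0029, 0.0031, and 0.0029 with the block), and for Acaca without pair 1 (0.0037, and 0.0028 with the block). It also turned without 1 library for Insig2 (range -0.031 to 0.021), Stard4 (-0.11 to 0.061), Acaca (-0.061 to 0.037), Cyp51 (-0.23 to 0.0019) and Elovl6 (-0.019 to 0.15). On both TPM scales and with the block Dhcr7 was at 0.15, 0.15 and 0.15 and Agpat3 at 0.32, 0.32 and 0.32. None of these was past the threshold, and the cause was not tested. Of 1189 values for 41 named genes, 966 kept direction and side of the threshold, 87 fell short of it, 114 newly passed and 22 turned sign. Depth is not known as reads. With 3 libraries a group an exact permutation test cannot go below p = 0.1, so no such test was used.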

Other observations

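The spread between control libraries was uneven among the 30 genes. Srebf1 and Insig2 had coefficients of variation of 3.98% and 3.98% over the 3 control libraries, and Acaca one of 4.14%, while Hsd17b7 and Insig1 had 19.0% and 20.7%. In Phf2 KO the spread of Insig1 was 16.2% and that of Insig2 1.42%. Cebpa, a regulator of adipocyte genes, was at 37.0, 29.3 and 32.4 CPM in control and 52.8, 54.5 and 48.0 CPM in KO, and rose by 0.65 on the log2 scale (edgeR quasi-likelihood adjusted p = 4.64e-04), whereas Adipoq, Fabp4, Cidec and Cfd, which adipocytes express at high levels, stayed below 1 CPM in every library. Cebpa is named because it makes up most of the summed level of the adipocyte markers, and was singled out after its values were seen.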
